A study of Mus musculus with 18 samples.

Results

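The interferon-stimulated genes described here are 39 genes that cells switch on when type I or type II interferon reaches them. They were taken by symbol from a list of well-known members, and all 39 were among the 35976 symbols measured. The list was chosen with earlier results of these data known, so a contrast of the members with all genes is no independent test. The cells were 4T1, a BALB/c mammary tumour line that stands as a mouse model of triple-negative breast cancer. One arm carried a doxycycline-inducible hairpin against Dap5 (shDap5), a translation initiation factor encoded by Eif4g2, and the other an inducible non-silencing hairpin (NSi). Both arms received 2 µg/ml doxycycline for 6 days, so the control cells had the drug too. PolyA RNA was sequenced from unfractionated lysate (input), from pooled light polysomes and from pooled heavy polysomes, with shDap5 and NSi libraries 1, 2 and 3 in each fraction and 18 libraries in all. Each arm was 1 cell line with 1 hairpin, and cells without doxycycline are not analysed here. Whether libraries of a group were grown separately is not stated, so every p-value is measured against a library spread that may be technical.

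Interferon bound to its receptor activates the kinases JAK1 and TYK2. Transcription factors that include STAT2 and IRF9 then bind interferon-stimulated response elements, short DNA motifs in the promoters of the target genes. The targets include sensors of foreign nucleic acid, the ubiquitin-like protein ISG15 and its enzymes, proteins that block viral RNA, and GTPases that act on intracellular microbes. Several of the targets (STAT2, IRF9, IRF7, and the RIG-I-like sensors) belong to the induction pathway itself, and breast tumour cells can run the programme at a low level without infection.

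Part of the set carries a recognisable promoter motif. In RefSeq (GRCm38.p6, the C57BL/6J reference) 29 of the 39 members had a promoter entry. The core of the response element, GAAANNGAAA on either strand, stood within 250 bases before the transcription start in 12 of these 29 (41.4%), against 936 of all 27025 genes with an entry (3.46%). The 5 windows below give the 140 bases before the start of a member from the ISG15 system, an IFIT gene, a GTPase that was called in the comparisons that follow, a second GTPase and the membrane protein Bst2, each read on the strand of its gene. Capitals mark GAAANNGAAA or its reverse complement TTTCNNTTTC, and matches overlap in Isg15, Irgm1 and Bst2. The windows lie at chr4:156200819-156200958 (minus strand) for Isg15, chr19:34640749-34640888 (plus strand) for Ifit1, chr11:48871421-48871560 (minus strand) for Irgm1, chr3:142620523-142620662 (plus strand) for Gbp2 and chr8:71537473-71537612 (minus strand) for Bst2.
Isg15: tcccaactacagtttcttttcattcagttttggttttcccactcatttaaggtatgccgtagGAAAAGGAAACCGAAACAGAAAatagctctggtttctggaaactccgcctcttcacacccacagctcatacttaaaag
Ifit1: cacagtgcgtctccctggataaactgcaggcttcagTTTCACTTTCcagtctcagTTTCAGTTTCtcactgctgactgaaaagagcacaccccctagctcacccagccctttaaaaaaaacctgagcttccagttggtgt
Irgm1: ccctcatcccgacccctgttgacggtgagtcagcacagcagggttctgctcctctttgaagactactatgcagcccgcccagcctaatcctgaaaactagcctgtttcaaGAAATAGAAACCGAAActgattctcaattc
Gbp2: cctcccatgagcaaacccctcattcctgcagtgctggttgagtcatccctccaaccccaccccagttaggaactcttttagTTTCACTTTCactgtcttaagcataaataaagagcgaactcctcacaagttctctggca
Bst2: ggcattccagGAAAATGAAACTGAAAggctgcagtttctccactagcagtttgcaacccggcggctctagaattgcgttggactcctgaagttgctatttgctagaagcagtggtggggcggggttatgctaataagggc
The run nearest the start ended 15 bases before it in Irgm1 and 115 bases before it in Bst2. A match is a description of these letters in the reference strain, not a measured binding site.

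Libraries held 30385863 to 71331978 counts, and levels are given as CPM, counts scaled by TMM and divided by library size. The 6 epithelial and 4T1 markers were above 1 CPM in every group, with summed levels of 2639 to 5831 CPM in shDap5 and 1871 to 5556 CPM in NSi libraries, and the 9 lymphocyte markers together stayed at or below 0.644 CPM in every library. The hormone receptor gene Pgr was at 0 counts in all 18 libraries, while Esr1 stood at 7.47 to 25.2 CPM and Erbb2 at 39.6 to 157 CPM. The label triple-negative was not derived from these RNA levels. Eif4g2, the targeted gene, stood at 592, 340.4 and 671 CPM in shDap5 libraries 1, 2 and 3, against 799, 759 and 852 CPM in NSi libraries 1, 2 and 3 of the input. On light polysomes it stood at 429, 311 and 274 CPM in shDap5 against 1315, 983 and 769 CPM in NSi, and on heavy polysomes at 358, 277 and 222 CPM in shDap5 against 864, 822 and 659.8 CPM in NSi. All shDap5 values lay below all NSi values in each fraction, and the fall was called on light polysomes (log2 change -1.60, adjusted p = 0.00204) and heavy polysomes (log2 change -1.45, adjusted p = 0.00349) but not in the input (log2 change -0.59, adjusted p = 0.202). The shDap5 libraries did not carry the same depth of knock-down: input 2 held 42.4% of the NSi mean, and inputs 1 and 3 held 73.7% and 83.5%.

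The members as a set stood apart library by library rather than arm by arm. In shDap5 input 2, the median member was 1.15 log2 units above the NSi input mean, and 23 of 39 members were more than 2-fold above it, against 4.12% of all 15072 genes tested. The same median was 0.15 in shDap5 input 1 and -0.32 in shDap5 input 3, and in each of these 1 member passed 2-fold (3.72% and 3.16% of all genes). The NSi inputs lay at 0.04, 0.04 and -0.11. On light polysomes the shDap5 medians were -0.05, 0.73 and 0.91 in libraries 1, 2 and 3, against -0.01, -0.30 and 0.17 in NSi, and 0, 14 and 18 members passed 2-fold in these shDap5 libraries (2.91%, 3.3% and 5.22% of all genes). On heavy polysomes they were -0.14, 0.78 and 1.09 in shDap5, against 0.13, -0.37 and 0.26 in NSi, and 1, 12 and 21 members passed 2-fold (4.22%, 4.58% and 8.25% of all genes). Polysome libraries 2 and 3 of shDap5 were therefore both high, whereas in the input library 2 alone was high, and library 1 was near the NSi mean in every fraction.

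**Figure D1:**
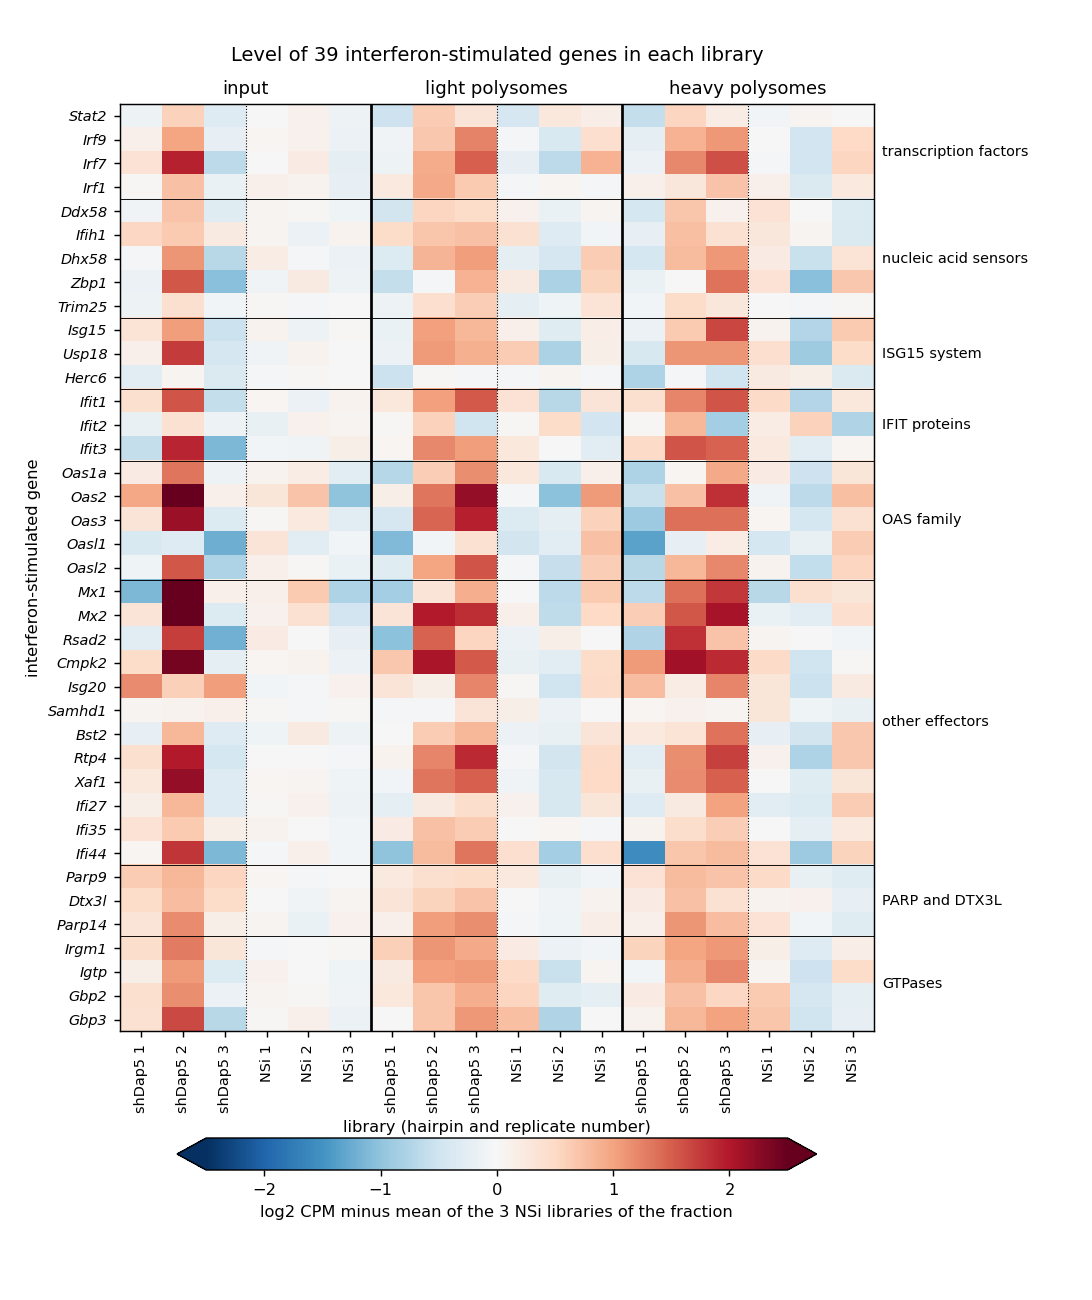
Level of each of the 39 members (rows, grouped by role) in each of the 18 libraries (columns, shDap5 left of NSi within input, light and heavy polysomes), as log2 CPM minus the mean of the 3 NSi libraries of that fraction; colours at the ends of the scale also stand for values beyond it. Most rows are high in shDap5 input 2 and in shDap5 polysome libraries 2 and 3, and near 0 in shDap5 libraries 1.

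This order was shared by nearly all members. Among the shDap5 inputs, library 2 was the highest of the group for 37 of 39 members (40.3% of all genes) and library 3 the lowest for 33 of 39 (27.5% of all genes). On light and on heavy polysomes, shDap5 library 1 was the lowest of its group for 37 of 39 members (34.1% and 25.8% of all genes). NSi library 2 was the lowest of the NSi group for 29 of 39 members on light polysomes and for 27 of 39 on heavy polysomes, against 31.8% and 38.6% of all genes. In bulk RNA, a higher level in all cells and a very high level in a few of them cannot be told apart.

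Within each fraction, the order of the shDap5 libraries by member level was the reverse of their order by Eif4g2. The shDap5 inputs held 73.7%, 42.4% and 83.5% of the NSi mean of Eif4g2 in libraries 1, 2 and 3, the light polysome libraries 41.9%, 30.4% and 26.8%, and the heavy polysome libraries 45.8%, 35.4% and 28.4%. In each fraction the shDap5 library with the least Eif4g2 had the highest member median. The same held in the NSi arm, which has no hairpin against Dap5, on both polysome fractions. There library 3 had the least Eif4g2 and the highest median (769 CPM and 0.17 on light, 659.8 CPM and 0.26 on heavy polysomes). Among the NSi inputs it did not hold: library 2 had the least Eif4g2 (759 CPM), with a median of 0.038 against 0.044 in library 1. Taken singly, 33 of 39 members in the input ran in exactly the reverse order of Eif4g2 (21.9% of all genes), as did 25 on light (16.5%) and 23 on heavy polysomes (13.4%). Light library 1, at 41.9% of the NSi light mean, had a median of -0.05. Input library 2, at 42.4% of the NSi input mean, had a median of 1.15. These 2 shares come from different fractions and need not mean the same knock-down. Against the NSi library of the same number, Eif4g2 stood at 32.6%, 31.6% and 35.6% in light libraries 1, 2 and 3. The paired member medians there were -0.10, 1.04 and 0.74, which was not the reverse order. Inputs kept the reverse order, at 74.1%, 44.8% and 78.8% with paired medians of 0.13, 1.14 and -0.19. Heavy libraries stood at 41.4%, 33.6% and 33.7%, with paired medians of -0.23, 1.17 and 0.74. The part of knock-down depth in the member levels was not tested.

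**Figure D2:**
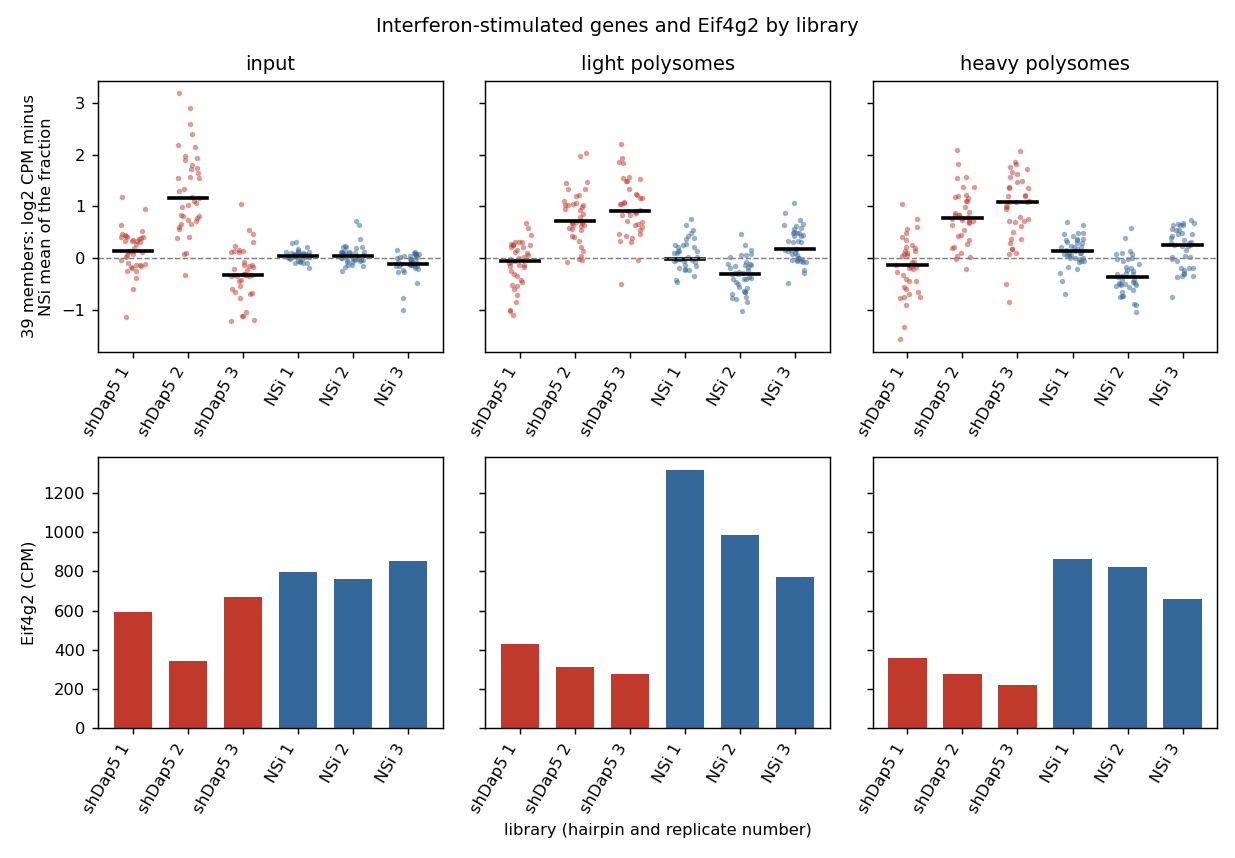
Log2 level of each of the 39 members relative to the NSi mean of the fraction (points, with the median as a bar) for every library, above the CPM of Eif4g2 in the same library (bars from 0), with shDap5 left of NSi in each fraction. The medians reach 1.15 in shDap5 input 2 and 1.09 in shDap5 heavy 3, the libraries of their groups with the least Eif4g2.

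Compared arm against arm, 2 of 39 members rose and 0 fell in the input (edgeR quasi-likelihood test, adjusted p under 0.05 over 15072 genes), while 6.95% of all genes were called, 3.01% higher and 3.94% lower. On light polysomes 1 member rose and 0 fell (3.47% of all genes called, 1.83% higher and 1.64% lower). On heavy polysomes 1 rose and 0 fell (3.95% called, 2.03% higher and 1.92% lower). These shares are close to those over all genes. At an unadjusted p under 0.05 there were 10 members in the input, 8 on light and 10 on heavy polysomes, all of them higher. At that threshold 10.1%, 8.24% and 9.23% of all genes were higher, and 19.5%, 16.1% and 17.2% differed in either direction. The fitted change was above 0 for 37 of 39 members in each fraction, against 56.3%, 48.2% and 51.6% of all genes in input, light and heavy polysomes. Its median over the members was 0.57, 0.59 and 0.61, against 0.05, -0.01 and 0.01 over all genes. Without shDap5 input 2, the input median was -0.05 with 16 of 39 members above 0 (55.7% of all genes), so the input value rests on that library. Without shDap5 library 3 the medians were 0.41 on light and 0.39 on heavy polysomes. All 3 shDap5 libraries lay above all 3 NSi libraries for 8 members in the input (20.2% of all genes), 7 on light polysomes (10.2%) and 5 on heavy polysomes (7.6%). All 3 lay below for 1 member in the input (16.9%) and for 0 on light (9.64%) and heavy polysomes (8.11%).

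Same-numbered libraries of the arms deviated alike within a fraction, though weakly in the input (correlations of 0.13 to 0.37). The fit was therefore repeated with the number within a fraction as a block. Then 5 members rose and 1 fell in the input (11.6% and 10.5% of all genes), 6 rose and 0 fell on light polysomes (8.63% and 7.5%), and 7 rose and 0 fell on heavy polysomes (10.3% and 8.01%). Dtx3l, Isg20 and Ifi35 rose in all 3 fractions under the block. Members called in 1 or more fractions were Irf1, Oas2, Cmpk2, Isg20, Bst2, Ifi35, Parp9, Dtx3l and Irgm1 higher, and Oasl1 lower. Library by library, the median difference of shDap5 from the NSi library of the same number was 0.13, 1.14 and -0.19 in input 1, 2 and 3. It was -0.10, 1.04 and 0.74 on light and -0.23, 1.17 and 0.74 on heavy polysomes. In input, light and heavy polysomes, number 1 was positive for 26, 17 and 10 of 39 members (55.7%, 47.5% and 49.9% of all genes). Number 2 was positive for 38, 38 and 37 (49.8%, 49.6% and 53.0%), and number 3 for 13, 37 and 36 (55.5%, 49.2% and 51.0%).

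Irgm1, an immunity-related GTPase that acts in autophagy and in defence against intracellular bacteria, was the 1 member called on polysomes. On light polysomes it stood at 36.1, 51.7 and 46 CPM in shDap5 libraries 1, 2 and 3, against 27.7, 21.7 and 22.9 CPM in NSi libraries 1, 2 and 3. On heavy polysomes it stood at 47.8, 64.3 and 68.9 CPM in shDap5 against 36, 25.9 and 36.1 CPM in NSi, and in the input at 28.6, 52.1 and 26.1 CPM in shDap5 against 20.8, 20.9 and 21.7 CPM in NSi. The groups did not overlap in any fraction. For the median member shDap5 library 1 was near the NSi mean, but for Irgm1, as for Dtx3l, it was above every NSi library. The mean of Irgm1 was 44.6 ± 7.89 CPM in shDap5 and 24.1 ± 3.2 CPM in NSi on light polysomes, and 60.3 ± 11.1 CPM in shDap5 and 32.7 ± 5.84 CPM in NSi on heavy polysomes (SD, n = 3 each). Irgm1 rose on light (log2 change 0.89, SE 0.23, adjusted p = 0.0412) and heavy polysomes (log2 change 0.88, SE 0.23, adjusted p = 0.0391), and the input change missed the threshold (log2 change 0.75, SE 0.23, adjusted p = 0.0588). The light call was lost on leaving out any light library but shDap5 1 (adjusted p up to 0.156), and the heavy call on leaving out shDap5 2 or 3 or NSi 1 or 2 (adjusted p up to 0.178). Without shDap5 input 2 the input change was 0.37.

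Among the other GTPases, Gbp2 (a guanylate-binding protein recruited to the vacuoles of intracellular microbes) stood at 9.71, 16.4 and 6.59 CPM in shDap5 against 7.63, 7.48 and 6.89 CPM in NSi in the input. On light polysomes Gbp2 stood at 8.11, 10.9 and 12.8 CPM in shDap5 against 9.84, 5.49 and 5.74 CPM in NSi. On heavy polysomes Gbp2 stood at 15.2, 21.9 and 18.7 CPM in shDap5 against 20.6, 9.81 and 11.2 CPM in NSi. The groups overlapped in every fraction, and the highest library was shDap5 2 in the input and on heavy polysomes and shDap5 3 on light polysomes. Igtp and Gbp3 overlapped as well, and the 4 GTPases had median changes of 0.66, 0.68 and 0.66 in input, light and heavy polysomes. Gbp2 and Gbp3 belong to a family of close paralogs, and how shared reads were counted is not given, so their split is uncertain.

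DTX3L, a ubiquitin ligase, and PARP9, an ADP-ribosyltransferase family protein, form a complex that modifies histones and viral proteins after interferon. In the input Dtx3l stood at 37.6, 47.1 and 37.9 CPM in shDap5 libraries 1, 2 and 3, against 27.8, 25.9 and 28.8 CPM in NSi libraries 1, 2 and 3. Parp9 stood at 39.1, 44.6 and 36.6 CPM in shDap5 against 26.2, 24.4 and 25 CPM in NSi. For both, every shDap5 input lay above every NSi input, and shDap5 inputs 1 and 3 took part in the rise along with input 2. Mean levels were 40.9 ± 5.4 CPM in shDap5 and 27.5 ± 1.43 CPM in NSi for Dtx3l, and 40.1 ± 4.12 CPM in shDap5 and 25.2 ± 0.873 CPM in NSi for Parp9 (SD, n = 3 each). Dtx3l (log2 change 0.57, SE 0.16, adjusted p = 0.0355) and Parp9 (log2 change 0.67, SE 0.19, adjusted p = 0.036) were the 2 members called in the input. Each call was lost on leaving out any 1 of the 6 inputs (adjusted p 0.0699 to 0.151 for Dtx3l and 0.0681 to 0.132 for Parp9). Without shDap5 input 2 the changes were 0.46 for Dtx3l and 0.59 for Parp9.

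On light polysomes Dtx3l stood at 24.7, 29.4 and 32.5 CPM in shDap5 against 19.7, 18.8 and 21.3 CPM in NSi. On heavy polysomes Dtx3l stood at 32.4, 46.6 and 36.6 CPM in shDap5 against 30.01, 30.3 and 24.6 CPM in NSi, and every shDap5 library was above every NSi library in both fractions. Neither change passed the threshold (log2 change 0.54, adjusted p = 0.0788 on light, log2 change 0.45, adjusted p = 0.142 on heavy), and under the block both did (log2 change 0.53, adjusted p = 0.0116 and log2 change 0.44, adjusted p = 0.0271). Parp9 stood at 33, 36.7 and 38.3 CPM in shDap5 against 32.9, 24.2 and 26.6 CPM in NSi on light polysomes, without overlap by a narrow margin. On heavy polysomes its values were 38.4, 51.6 and 49.1 CPM in shDap5 against 41.6, 26.5 and 24.4 CPM in NSi, where NSi 1 lay above shDap5 1 (log2 change 0.59, adjusted p = 0.0928). Dtx3l and Irgm1 were the 2 members whose arms did not overlap in any of the 3 fractions, a pattern found upwards in 3.37% of all genes. Parp9 and Dtx3l lie head to head on opposite strands of chromosome 16 and overlap at their 5′ ends in GRCm38. The use of strand in counting is not given, so reads from the shared stretch cannot be told apart.

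Parp14, an ADP-ribosyltransferase that in mouse shapes cytokine signalling, stood at 29.8, 53.8 and 26.3 CPM in shDap5 against 24.8, 21 and 25.6 CPM in NSi in the input. On light polysomes Parp14 stood at 19.1, 36.5 and 39.5 CPM in shDap5 against 16.9, 16.3 and 19.7 CPM in NSi, and its change did not pass the threshold (log2 change 0.85, SE 0.30, adjusted p = 0.14). shDap5 light 1 fell within the NSi range and libraries 2 and 3 were well above it, the pattern of most members.

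**Figure D3:**
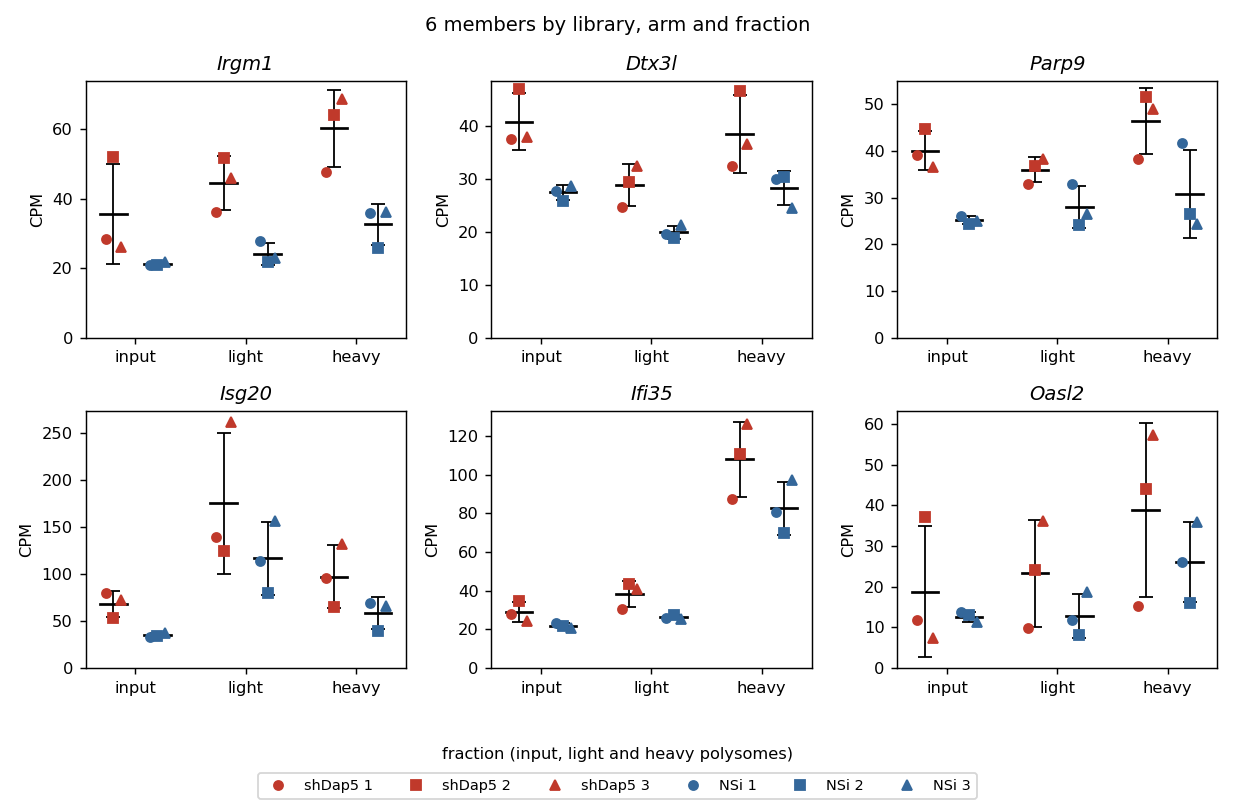
CPM of Irgm1, Dtx3l, Parp9, Isg20, Ifi35 and Oasl2 in every library (points), with the mean and SD of each group of 3, shDap5 left of NSi in input, light and heavy polysomes. Irgm1 and Dtx3l do not overlap between arms in any fraction, while Oasl2 spreads from 7.36 to 37.3 CPM among the shDap5 inputs.

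Isg20, a 3′ to 5′ exonuclease that degrades viral RNA, ran in another order. In the input it stood at 79.6, 53.1 and 72.4 CPM in shDap5 libraries 1, 2 and 3, against 33.4, 34.1 and 37.4 CPM in NSi libraries 1, 2 and 3. The groups did not overlap, and library 2, the highest of the shDap5 inputs for 37 members, was here the lowest of them. The change did not pass the threshold (log2 change 0.97, SE 0.31, adjusted p = 0.0731), passed it without shDap5 input 2 (log2 change 1.12, adjusted p = 0.0424) and passed it under the block (log2 change 0.95, adjusted p = 0.00015). On light polysomes Isg20 stood at 139.7, 124 and 261 CPM in shDap5 against 114, 79.4 and 156 CPM in NSi, and on heavy polysomes at 95.9, 64.4 and 131 CPM in shDap5 against 69.6, 38.9 and 66.3 CPM in NSi. There the groups overlapped, and number 2 was the lowest library of both arms. Under the block Isg20 rose on light (log2 change 0.56, adjusted p = 0.00925) and heavy polysomes (log2 change 0.73, adjusted p = 0.00174).

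Ifi35, an interferon-induced leucine zipper protein that partners with NMI, stood at 28, 34.5 and 24.3 CPM in shDap5 against 23.3, 21.8 and 20.8 CPM in NSi in the input. On light polysomes it stood at 30.5, 43.6 and 41 CPM in shDap5 against 26.1, 27.4 and 25.6 CPM in NSi, and on heavy polysomes at 87.4, 111 and 126 CPM in shDap5 against 81, 69.96 and 97.3 CPM in NSi. The arms did not overlap in the input or on light polysomes, and overlapped on heavy polysomes. No change passed the threshold (log2 change 0.40, adjusted p = 0.216 in the input, log2 change 0.54, adjusted p = 0.11 on light and log2 change 0.38, adjusted p = 0.27 on heavy polysomes). All 3 passed it under the block (log2 changes 0.39, 0.53 and 0.38, with adjusted p = 0.0432, 0.0129 and 0.0491).

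The transcription factors among the members are STAT2 and IRF9, which act together at response elements, IRF7, which amplifies the response, and IRF1, which acts early after type II interferon. Stat2 stood at 37.9, 61.6 and 33.5 CPM in shDap5 against 41.8, 44.9 and 38.3 CPM in NSi in the input. On light polysomes Stat2 stood at 19.8, 44.2 and 35.3 CPM in shDap5 against 21.1, 33.9 and 31.8 CPM in NSi. On heavy polysomes Stat2 stood at 30.1, 66 and 51.5 CPM in shDap5 against 43.5, 47.9 and 44.9 CPM in NSi. It overlapped throughout, with changes of 0.09, 0.19 and 0.12. Irf9 stood at 21.2, 38.8 and 16.9 CPM in shDap5 against 20.1, 21 and 17.6 CPM in NSi in the input. On light polysomes Irf9 stood at 21.8, 36.9 and 55.1 CPM in shDap5 against 22.3, 17.9 and 31.1 CPM in NSi. On heavy polysomes Irf9 stood at 26.4, 55.9 and 65.2 CPM in shDap5 against 30.6, 21.8 and 43.1 CPM in NSi. For Irf9, shDap5 input 2 was above every NSi input, and polysome libraries 2 and 3 were above every NSi library.

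Irf7 stood at 5.35, 15.9 and 2.59 CPM in shDap5 libraries 1, 2 and 3, against 4.17, 4.79 and 3.54 CPM in NSi inputs 1, 2 and 3. Light polysomes held 8.02, 16.8 and 24.9 CPM in shDap5 against 7.63, 5.55 and 16.1 CPM in NSi, and heavy polysomes 12.2, 30.7 and 41.3 CPM in shDap5 against 12.9, 9.59 and 19.6 CPM in NSi. The arms overlapped in every fraction, with shDap5 input 3 the lowest and input 2 the highest of all 6 inputs (log2 change 0.93, adjusted p = 0.412). Irf1 stood at 85.3, 139 and 114 CPM in shDap5 against 70.5, 74.7 and 70.3 CPM in NSi on light polysomes, where the arms did not overlap (log2 change 0.65, adjusted p = 0.154, and adjusted p = 0.0151 under the block). In the input it stood at 60.8, 99.6 and 53 CPM in shDap5 against 65, 63.9 and 51.7 CPM in NSi, and on heavy polysomes at 114, 126 and 171 CPM in shDap5 against 114, 80.8 and 123 CPM in NSi, both with overlap.

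The nucleic acid sensors had small changes. In the input Ddx58 (RIG-I) stood at 42.3, 73.9 and 36.5 CPM in shDap5 against 47.4, 46.4 and 41.9 CPM in NSi. Ifih1 (MDA5) stood at 20.03, 22.1 and 16.5 CPM in shDap5 against 14.7, 12.6 and 14.8 CPM in NSi, and was the one sensor whose 3 shDap5 inputs all lay above NSi (log2 change 0.47, adjusted p = 0.277). Dhx58 (LGP2, which regulates both) stood at 7.41, 16.4 and 4.73 CPM in shDap5 against 8.66, 7.41 and 6.92 CPM in NSi. Input 2 was the highest and input 3 the lowest of the shDap5 inputs for each of these sensors. Trim25, a ubiquitin ligase that acts on RIG-I, stood at 115, 166 and 119.9 CPM in shDap5 against 128, 122 and 127 CPM in NSi. On heavy polysomes Ddx58 stood at 48.1, 106 and 70.3 CPM in shDap5 against 83.8, 64.9 and 51.5 CPM in NSi. Ifih1 there stood at 13.3, 25.7 and 19.8 CPM in shDap5 against 18.7, 16.1 and 11.8 CPM in NSi, and the arms of both overlapped. This group of 5, with Zbp1 and the ligase gene Trim25, had median changes of 0.31, 0.31 and 0.34 in input, light and heavy polysomes. All 5 were above 0 each time, and 0 of 5 were called.

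Isg15, the ubiquitin-like modifier, stood at 10.2, 16.7 and 5.57 CPM in shDap5 against 8.63, 7.41 and 8.29 CPM in NSi in the input. Light polysomes held 12.8, 29.3 and 25.5 CPM in shDap5 against 15.7, 11.7 and 16.1 CPM in NSi, and heavy polysomes 20.02, 34.6 and 70.1 CPM in shDap5 against 23.5, 13.2 and 34.5 CPM in NSi. shDap5 input 2 and heavy library 3 were the highest of their fractions, shDap5 input 3 was the lowest input, and the arms overlapped in each fraction (log2 change 0.42, adjusted p = 0.676 in the input). Usp18, the protease that removes ISG15 and restrains receptor signalling, stood at 3.78, 11.7 and 2.58 CPM in shDap5 against 3.25, 3.7 and 3.46 CPM in NSi in the input. On light polysomes Usp18 stood at 4.71, 11 and 9.8 CPM in shDap5 against 8.17, 3.03 and 5.82 CPM in NSi. On heavy polysomes Usp18 stood at 6.96, 19.9 and 19.96 CPM in shDap5 against 12.4, 4.98 and 12.7 CPM in NSi. It followed the same order of libraries. Herc6, the main ISG15 ligase in mouse, went the other way, with log2 changes of -0.17, -0.16 and -0.42 in input, light and heavy polysomes. On heavy polysomes Herc6 stood at 8.98, 15.2 and 10.9 CPM in shDap5 against 18, 17.1 and 12.1 CPM in NSi, with overlap (log2 change -0.42, adjusted p = 0.316).

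The IFIT proteins bind viral RNA and block its translation. Ifit1 stood at 6.77, 15.3 and 3.36 CPM in shDap5 against 5.29, 4.63 and 5.41 CPM in NSi in the input. On light polysomes Ifit1 stood at 5.62, 9.5 and 13.6 CPM in shDap5 against 6.01, 2.88 and 5.85 CPM in NSi. On heavy polysomes Ifit1 stood at 7.73, 13.6 and 17.3 CPM in shDap5 against 8.13, 3.48 and 7.0 CPM in NSi. shDap5 libraries 2 were above every NSi library in all fractions, and library 3 was above them on polysomes and below them in the input. The heavy change was 1.05 (adjusted p = 0.251) and for Ifit3 1.25 (adjusted p = 0.257). Ifit3 has a near-identical copy, Ifit3b, so its counts are uncertain. Ifit2 was unlike them, with changes of 0.04, 0.05 and 0.06. On heavy polysomes it stood at 33.8, 58.8 and 18.3 CPM in shDap5 against 37.5, 49.3 and 19.6 CPM in NSi, where number 3 was low in both arms.

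OAS enzymes make the short oligoadenylates that activate RNase L. Oas2 stood at 0.618, 3.06 and 0.327 CPM in shDap5 libraries 1, 2 and 3, against 0.375, 0.514 and 0.125 CPM in NSi inputs 1, 2 and 3. It showed the largest fitted input change of any member (log2 change 1.98, SE 0.82, adjusted p = 0.177), which rests on input 2, and it was called under the block (log2 change 1.65, adjusted p = 0.0225). Oasl2, an OAS-like protein, stood at 11.7, 37.3 and 7.36 CPM in shDap5 against 13.7, 13 and 11.3 CPM in NSi in the input. On light polysomes Oasl2 stood at 9.81, 24.1 and 36.1 CPM in shDap5 against 11.7, 8.1 and 18.7 CPM in NSi. On heavy polysomes Oasl2 stood at 15.3, 43.9 and 57.2 CPM in shDap5 against 26.2, 16.1 and 35.8 CPM in NSi. For Oasl2, shDap5 input 2 was more than 2-fold above every other input, and input 3 was the lowest. Oas1a stood at 3.85, 8.51 and 3.06 CPM in shDap5 against 3.54, 3.83 and 2.77 CPM in NSi in the input. On light polysomes Oas1a stood at 2.4, 6.13 and 8.98 CPM in shDap5 against 4.74, 3.03 and 4.35 CPM in NSi. On heavy polysomes Oas1a stood at 5.83, 10.2 and 19.2 CPM in shDap5 against 11.5, 6.92 and 12.2 CPM in NSi. Both Oas1a and Oas3 were highest in shDap5 input 2 among the inputs. Oas1a belongs to a cluster of close paralogs, so its counts are uncertain.

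Oasl1, reported in mouse to restrain translation of Irf7 mRNA, was the other member below 0 in every fraction. It stood at 8.02, 8.33 and 4.46 CPM in shDap5 libraries 1, 2 and 3, against 13, 8.75 and 10.02 CPM in NSi inputs 1, 2 and 3. All shDap5 inputs lay below all NSi inputs (log2 change -0.61, adjusted p = 0.487), and Oasl1 fell under the block (log2 change -0.64, adjusted p = 0.0432). On light and heavy polysomes its changes were -0.25 and -0.40, with overlap.

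Of the other antiviral effectors, Bst2 (tetherin), which holds budding virions at the membrane, stood at 47.8, 97.5 and 44 CPM in shDap5 against 51.2, 64 and 50.3 CPM in NSi in the input. On light polysomes Bst2 stood at 161, 251 and 288 CPM in shDap5 against 147, 143 and 202 CPM in NSi. On heavy polysomes Bst2 stood at 107, 114 and 233 CPM in shDap5 against 78.1, 65.3 and 145 CPM in NSi. shDap5 input 2 was above every NSi input, inputs 1 and 3 were below them, and under the block Bst2 rose on light (log2 change 0.48, adjusted p = 0.0422) and heavy polysomes (log2 change 0.65, adjusted p = 0.00915). Rsad2 (viperin) stood at 1.12, 4.53 and 0.557 CPM in shDap5 against 1.56, 1.33 and 1.17 CPM in NSi in the input. On light polysomes Rsad2 stood at 0.547, 3.29 and 1.71 CPM in shDap5 against 1.04, 1.29 and 1.15 CPM in NSi. On heavy polysomes Rsad2 stood at 0.675, 4.24 and 1.93 CPM in shDap5 against 1.23, 1.17 and 1.12 CPM in NSi. It was high in shDap5 library 2 of each fraction. Cmpk2, a mitochondrial nucleotide kinase induced alongside it, stood at 1.17, 2.44 and 2.06 CPM in shDap5 against 0.77, 0.366 and 0.546 CPM in NSi on heavy polysomes. Every shDap5 heavy library lay above every NSi one for Cmpk2 (log2 change 1.74, SE 0.57, adjusted p = 0.105, and adjusted p = 0.026 under the block).

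Mx2, a dynamin-like GTPase, stood at 1.18, 7.26 and 0.73 CPM in shDap5 against 1.01, 1.22 and 0.654 CPM in NSi in the input. Its levels were 2.19, 7.03 and 6.42 CPM in shDap5 against 1.93, 1.11 and 2.5 CPM in NSi on light and 1.1, 2.16 and 3.12 CPM in shDap5 against 0.628, 0.585 and 0.968 CPM in NSi on heavy polysomes. shDap5 input 2 was far above every NSi input, and on heavy polysomes the arms did not overlap (log2 change 1.55, adjusted p = 0.26). Mx1, whose allele is defective in most laboratory strains, BALB/c included, stood at 0.0394, 1.06 and 0.154 CPM in shDap5 against 0.156, 0.241 and 0.0623 CPM in NSi in the input. Rtp4, Xaf1 and Ifi44 had the order of Oasl2, and Xaf1 stood at 5.06, 19.4 and 3.32 CPM in shDap5 against 4.32, 4.39 and 3.88 CPM in NSi in the input. Ifi27, a mitochondrial protein, stood at 202, 293 and 504 CPM in shDap5 against 207, 198 and 391 CPM in NSi on heavy polysomes, with overlap. Samhd1, which breaks down deoxynucleotides, stood at 89.1, 90.5 and 92.8 CPM in shDap5 against 86.6, 81.8 and 86 CPM in NSi in the input. On light polysomes Samhd1 stood at 61.6, 62.1 and 80.2 CPM in shDap5 against 70.4, 57.9 and 64.2 CPM in NSi. On heavy polysomes Samhd1 stood at 115, 119 and 116 CPM in shDap5 against 136, 103 and 97.3 CPM in NSi. Its 3 shDap5 inputs lay just above the NSi inputs, its polysome groups overlapped, and its log2 changes were 0.10, 0.08 and 0.06 in input, light and heavy polysomes.

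**Figure D4:**
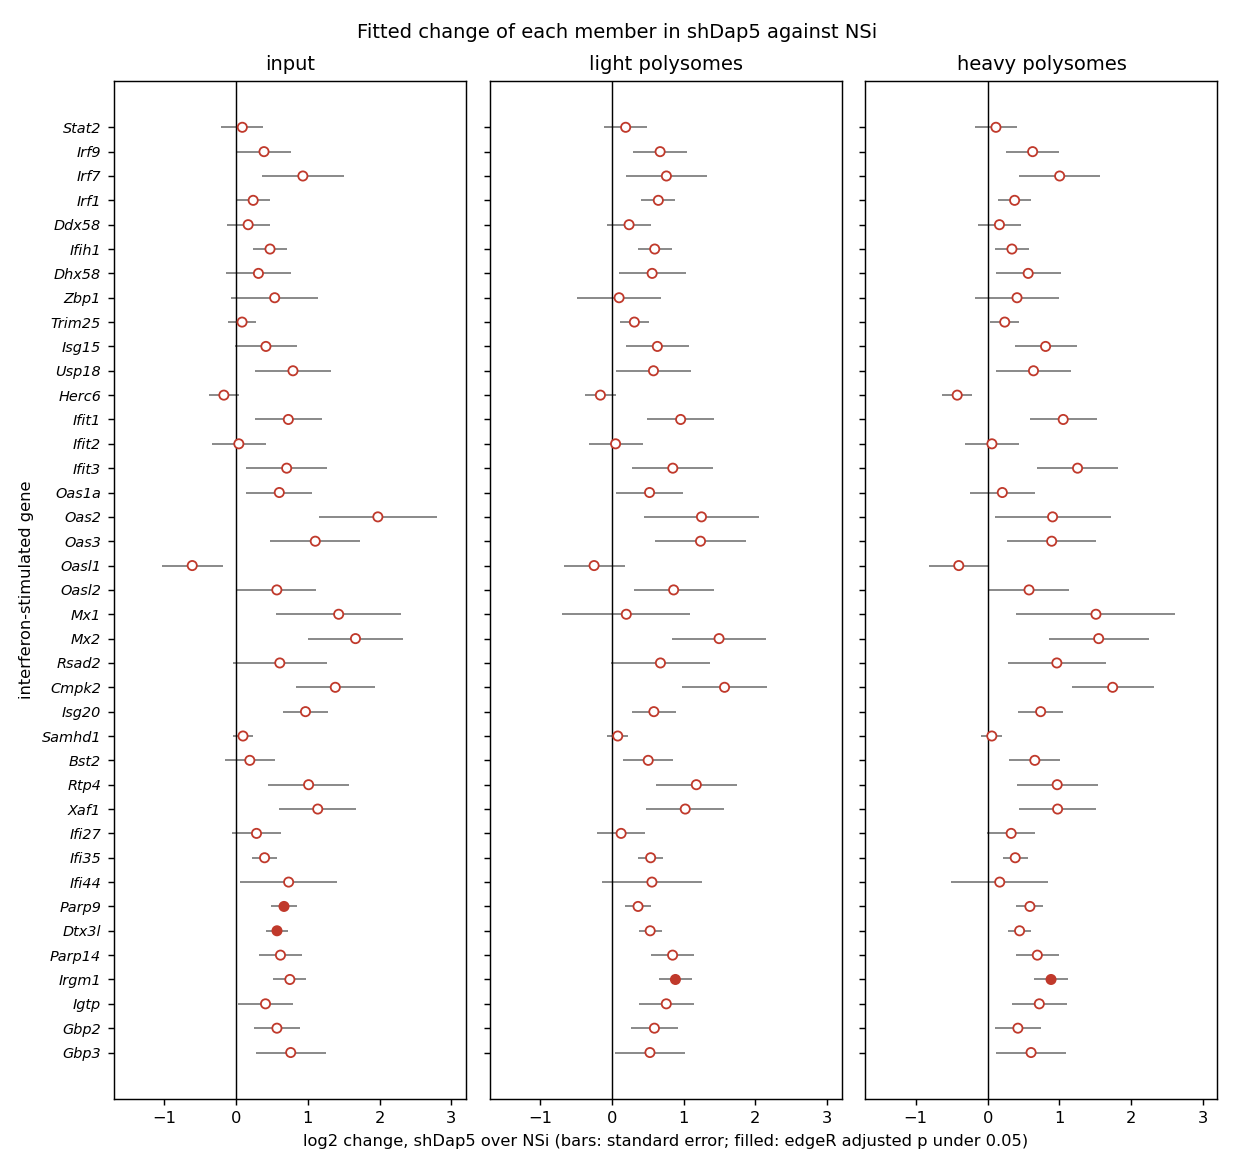
Fitted log2 change of shDap5 over NSi with its SE for each of the 39 members (rows) in input, light and heavy polysomes; filled points passed an adjusted p of 0.05. Nearly all points lie right of 0, with Herc6 and Oasl1 left of it in every fraction, and Dtx3l and Parp9 are filled in the input and Irgm1 on light and heavy polysomes.

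An interaction term tested whether the arms differed more on polysomes than in lysate. On light polysomes relative to input, edgeR called 0 of 39 members (0% of all genes), 0 had an unadjusted p under 0.05 (2.12% of all genes) and DESeq2 called 0 (0% of all genes). On heavy polysomes relative to input, edgeR also called 0 (0% of all genes), 0 had an unadjusted p under 0.05 (1.96%) and DESeq2 called 0 (0% of all genes). The median interaction over the members was 0.07 on light and 0.01 on heavy polysomes, against -0.04 and -0.02 over all genes. Without shDap5 input 2 these medians were 0.67 and 0.59, with 0 members called (0.0521% and 0.0587% of all genes). The smallest p-values belonged to Irf1 (log2 change 0.41, adjusted p = 1) and Parp9 (log2 change -0.30, adjusted p = 1) on light polysomes, and to Oas2 (log2 change -1.07, adjusted p = 1) and Bst2 (log2 change 0.46, adjusted p = 1) on heavy polysomes. The Oas2 value turned to 0.40 without shDap5 input 2. Between inputs and polysomes of the same number, correlations of these deviations ran from -0.32 to 0.46, so input 2 and polysome libraries 2 need not share a culture.

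Along the gradient of control cells, 10 of 39 members were higher on heavy than on light polysomes and 1 was lower, where 52.6% of all genes were called, 27% higher and 25.6% lower. The share of members called higher was thus near that of all genes. At an unadjusted p under 0.05 there were 17 members (59% of all genes). The median member change was 0.52, against -0.03 over all genes, and 33 of 39 were above 0 (49.0% of all genes). Higher on heavy polysomes were the sensors Ifih1 (log2 change 1.14, adjusted p = 0.000725), Ddx58 (log2 change 1.10, adjusted p = 0.00576) and Dhx58 (log2 change 1.47, adjusted p = 0.0137), and the ligase gene Trim25 (log2 change 0.74, adjusted p = 0.00519). So were Ifi35, whose heavy and light levels in NSi did not overlap (log2 change 1.65, adjusted p = 1.68e-06), and Samhd1 (log2 change 0.80, adjusted p = 0.000214). Herc6 (log2 change 0.68, adjusted p = 0.0116), Dtx3l (log2 change 0.51, adjusted p = 0.0134), Gbp2 (log2 change 0.98, adjusted p = 0.0185) and Oas1a (log2 change 1.34, adjusted p = 0.0234) completed the 10. Isg20 was the 1 lower (log2 change -0.9995, adjusted p = 0.0126). Leaving out 1 NSi library ended the call in turn for Dhx58, Gbp2, Herc6, Oas1a and Isg20, with adjusted p up to 0.152.

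**Figure D5:**
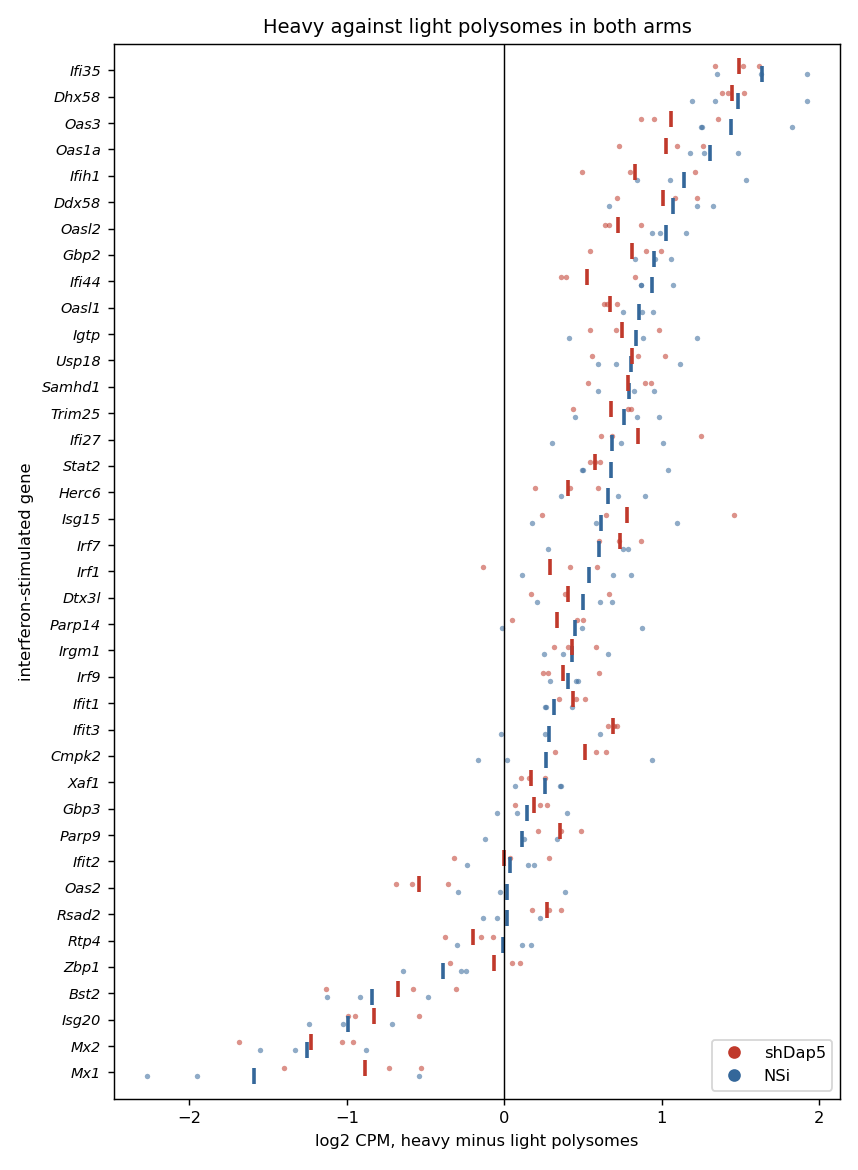
Log2 level on heavy minus light polysomes for each of the 39 members in shDap5 and in NSi cells, from the group means. Most members lie above 0 in both arms, with Ifi35 at 1.49 in shDap5 and 1.64 in NSi, and Isg20, Mx1 and Mx2 below 0.

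Other genes of the pathway came from lists chosen with results of these data known. The 10 interferon genes looked up were at or near 0 in all libraries, and 0 of 10 had counts enough to be tested. Of 9 receptor and kinase genes, Jak2, a kinase of the type II receptor, rose in all 3 fractions (log2 change 0.66, adjusted p = 0.00556 in the input, log2 change 0.56, adjusted p = 0.0279 on light and log2 change 0.58, adjusted p = 0.0219 on heavy polysomes) and 0 fell. Of 13 other sensors and adaptors tested, Tlr3, which senses double-stranded RNA, rose in the input (log2 change 1.06, adjusted p = 0.0321), and Tmem173, which encodes STING, fell in all 3 (-1.12, -0.78 and -1.11 on the log2 scale). STING stood at 8.9, 8.02 and 7.92 CPM in shDap5 against 17.9, 18.3 and 18 CPM in NSi in the input. Of 36 further interferon-inducible genes tested, edgeR called 0 higher in any fraction. Nlrc5 fell in the input (log2 change -0.94, adjusted p = 0.00729) and Epsti1 on heavy polysomes (log2 change -1.05, adjusted p = 0.0462). At an unadjusted p under 0.05, 1, 2 and 0 were higher and 3, 2 and 4 lower in input, light and heavy polysomes. At that threshold 10.1%, 8.24% and 9.23% of all genes were higher, and 19.5%, 16.1% and 17.2% differed in either direction. The medians of the 36 were 0.03, 0.15 and 0.12 arm against arm, against 0.57, 0.59 and 0.61 for the 39. Summed over the 38 listed, shDap5 inputs 1, 2 and 3 held 1151, 1343 and 1089 CPM against 1229, 1163 and 1234 CPM in NSi. Light polysomes held 1013, 1196 and 1497 CPM in shDap5 against 1039, 984 and 1224 CPM in NSi. Heavy polysomes held 1298, 1516 and 1864 CPM in shDap5 against 1517, 1290 and 1548 CPM in NSi. The highest sum was in shDap5 2 among inputs and shDap5 3 on both polysome fractions. Of 6 negative regulators 0 were called, with 1, 1 and 2 at an unadjusted p under 0.05 (19.5%, 16.1% and 17.2% of all genes). Of 2 ISG15-conjugating enzymes 0 were called, with 0 at an unadjusted p under 0.05.

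Markers of macrophages, a cell type rich in interferon-stimulated genes, were read beside these values. Of 10 markers in the files 7 were below 1 CPM in each shDap5 group, and 5 of 10 had counts enough to be tested. Their summed level was 44.0, 74.0 and 36.1 CPM in shDap5 inputs 1, 2 and 3, against 61.0, 63.9 and 56.7 CPM in NSi. On light polysomes it was 55.4, 105 and 62.9 CPM in shDap5 against 51.1, 66.4 and 61.0 CPM in NSi, and on heavy polysomes 88.7, 142 and 88.7 CPM in shDap5 against 94.6, 112 and 98.4 CPM in NSi. Most of the sum in NSi was Cd68, a lysosomal membrane protein, at 12.4, 50.9 and 10.6 CPM in shDap5 against 44.3, 44.9 and 39.9 CPM in NSi in the input. The sum was highest in shDap5 library 2 of each fraction. In shDap5 library 3 it lay within the NSi range on light polysomes and below it on heavy polysomes. Csf1r rose in all 3 fractions (log2 change 2.21, adjusted p = 6.53e-05 in the input, log2 change 1.66, adjusted p = 0.00211 on light and log2 change 1.60, adjusted p = 0.00204 on heavy polysomes). Lyz2 fell in the input (log2 change -3.00, adjusted p = 0.00899) and was not called on light (log2 change -1.96, adjusted p = 0.107) or heavy polysomes (log2 change -1.41, adjusted p = 0.241). C1qa and C1qb were at 0 counts in all 18 libraries, and Adgre1, Itgam and Fcgr1 were each at or below 0.33 CPM in every library. The pan-leukocyte gene Ptprc stood at 0.499, 0.0164 and 0.307 CPM in shDap5 against 0.078, 0.129 and 0.0623 CPM in NSi in the input, and at or below 0.114 CPM in every polysome library. The part of such cells in the member levels was not tested.

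Within the members, those with the response element in the promoter window had the higher medians in the high libraries. In shDap5 input 2 the median level relative to NSi was 1.32 log2 units for the 12 members with GAAANNGAAA and 0.71 for the 17 with a promoter entry and no match. It was 1.02 and 0.67 in shDap5 light 2, and 0.995 and 0.7075 in shDap5 light 3. On heavy polysomes it was 1.15 and 0.62 in shDap5 library 3, and closer together in shDap5 library 2, at 0.866 and 0.696. In shDap5 libraries 1 of the 3 fractions both medians lay between -0.14 and 0.26. The difference was not tested, since the members were chosen as interferon targets.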

How the data were processed

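Each library came as a file of raw gene counts that the authors deposited without normalization. Bowtie and the build mm9 are named per the submitters' processing notes; which program counted the reads, with which annotation and strand setting, and how it treated shared reads is not given in the sources used. Per the labels' protocols, libraries were stranded and polyA-selected. Groups came from the sample titles. The 39 members, the role groups and the other lists were chosen with earlier results of these data known.

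Counts of all 18 libraries were fitted together in edgeR 4.0.16 (R 4.3.3; TMM scaling, low counts removed by filterByExpr at a minimum of 10 per library and 15 in total, robust quasi-likelihood fit, 1 mean per group). The fit had 12 residual degrees of freedom, and the common biological coefficient of variation was 0.227. All 39 members were among the 15072 genes tested, and 37 had 10 or more counts in every library. "Called", "rose" and "fell" mean a Benjamini-Hochberg adjusted p under 0.05 over all genes tested. Standard errors (SE) were taken as the log2 change over the square root of F. Levels relative to NSi are log2 CPM with a prior count of 2. A count of 0 allows up to 3 counts, or 0.0394 to 0.11 CPM by library, for counting error only. The fit was also run on simulated counts, drawn independently for each gene and library. Those counts hold no shared movement of genes within a library, so they do not test the fit for members that move together.

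Replicate numbers were taken from the titles, which do not say what a number marks. Deviations of same-numbered shDap5 and NSi libraries from their group means were correlated over 10308 genes. The correlations were 0.13 to 0.37 in the input, 0.56 to 0.79 in the light and 0.51 to 0.83 in the heavy fraction. Between inputs and polysomes the correlations ran from -0.32 to 0.46, some above those between the input arms, so the pairing is least certain in the input. The block used is the number within a fraction, and that fit had 6 residual degrees of freedom. Alternatives were the block over all fractions, only the groups compared, DESeq2 1.42.0 and its size factors, no filter, a mean of at least 1 CPM, and leaving out each library.

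Members named with a test were those called in any comparison, the 4 with the smallest p in each comparison of arms within a fraction and the 2 in each other comparison; values per library were given for these and for Isg15, Ifit1, Irf7, Irf9, Stat2, Oasl2, Bst2, Usp18, Rsad2 and Mx2. Values of other members named were chosen after they were seen. Promoters were matched by symbol to RefSeq (GRCm38.p6), not the build of the files, so no gene coordinates are given beyond the windows printed.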

Additional observations from a re-analysis of the deposited data

How the results depend on the processing

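Counts of members called moved with the processing in all comparisons of the arms within a fraction. In the input 2 were called, against 4 with a replicate block over all fractions, 6 with the replicate block within the fraction and 4 with the DESeq2 Wald test (6.95%, 11.9%, 22.1% and 9.61% of all genes). On light polysomes 1 was called, against 2, 6 and 3 under the same settings (3.47%, 6.72%, 16.1% and 6.18%), and 0 with a mean of at least 1 CPM (3.21% of all genes; 8 members at an unadjusted p under 0.05). On heavy polysomes 1 was called, against 2, 7 and 2 (3.95%, 7.44%, 18.3% and 6.66%), and 0 with only the groups compared (0.423% of all genes; 7 members at an unadjusted p under 0.05). Leaving out 1 library gave 0 to 1 called in each of the 3 fractions, with 4 to 19 members at an unadjusted p under 0.05 in the input, 5 to 18 in the light and 4 to 19 in the heavy fraction. The cause of these moves was not tested, beyond the fewer samples that leaving out a library leaves. Settings with the DESeq2 size factors or no filter stayed within 1.5 times the count.

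Over the alternatives, adjusted p for Dtx3l in the input ran from 0.00484 to 0.151, for Parp9 in the input from 0.011 to 0.132, for Irgm1 on light polysomes from 0.00762 to 0.156 and for Irgm1 on heavy polysomes from 0.007 to 0.178. The interaction counts were 0 under every alternative run (at most 0.0587% of all genes called), with up to 4 members at an unadjusted p under 0.05. NSi heavy against light gave 8 to 12 called without 1 library (43.7% to 52.5% of all genes). The change of Oas2 on heavy polysomes relative to the input ran from -1.86 to 0.40 without 1 library, and reversed without shDap5 input replicate 2 (adjusted p = 0.946).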
